A study of Mus musculus with 9 samples.

Results

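The genes described here encode F-box proteins, the receptors that choose the substrates of cullin 1 ubiquitin ligases, together with the adaptor gene Skp1a and the cofactor gene Cks1b. They were taken as a named list of 41 genes, and each was represented by the probe set with the highest mean log2(signal + 16) over the 9 arrays. All 41 were among the 10613 genes tested, out of 18193 genes with a probe set. The study used NIH 3T3 cells, a mouse fibroblast line, and hybridised their RNA to Affymetrix expression arrays, with 3 biological replicates in each of 3 groups. In the first group the cells carried a retroviral vector with a short hairpin RNA (shRNA) against Ube2m, in the second a hairpin against Ube2f, and in the third a control hairpin. Every group was harvested 5 days after transduction, 6 ug of total RNA went into each labelling, and the growth label of all groups, controls included, describes the cells as expressing Ube2f. The sources used here do not say whether that refers to an added construct, how many hairpins were used per target or whether transduced cells were selected.

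The products of Ube2m and Ube2f are E2 enzymes, which hand the small ubiquitin-like protein NEDD8 to cullins. In a cullin 1 ligase, also called an SCF ligase, Cul1 is the scaffold, Rbx1 brings in the ubiquitin-loaded E2, and Skp1 joins the scaffold to the F-box motif of a receptor, whose other domain binds the substrate. Receptors are grouped by that domain into those with WD40 repeats (Fbxw), those with leucine-rich repeats (Fbxl, including Skp2) and those with other domains (Fbxo, including cyclin F), and attaching NEDD8 to the cullin switches the ligase on. The title of the series poses the question of how pairs of E2 and RING proteins choose the cullin that receives NEDD8. The values below are transcript signals and say nothing of protein or of ligase activity.

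Ube2f signal was 132 ± 13.2 with its own hairpin and 2539 ± 199 with control shRNA (SD, n = 3 arrays each, log2 fold change -4.11, limma adjusted p = 7.45e-10). No probe set with a single gene carried the name Ube2m, so the reduction of that target was not checked here. Of 14 fibroblast markers 13 were above the low-signal level of 53.8 (all but Fap), and of 9 endothelial markers 0 were. Of 10 macrophage markers 4 were above it (Cd14, Csf1r, Lyz1 and Lyz2), and of 9 epithelial markers 2 (Cdh1 and Epcam). Of 13 skeletal muscle markers 3 were above it (Acta1, Des and Mylpf), with Myod1 and Myog under it, and the summed signal of that list was 1239 to 1372 with Ube2m shRNA, 779 to 874 with Ube2f shRNA and 808 to 1025 with control shRNA. The adipocyte list, where Lpl alone of 6 markers was above the level, summed to 4584 to 4900.3 with Ube2m shRNA, 3886 to 4818 with Ube2f shRNA and 3153 to 4209 with control shRNA. The fibroblast list summed to 170418.5 to 192223 with Ube2m shRNA, 195267 to 219904 with Ube2f shRNA and 182560 to 218292 with control shRNA. For that list every Ube2m shRNA array was below every Ube2f shRNA array, and both ranges overlapped with that of control. Replicate 3 of each group had a higher median signal over all probe sets than replicates 1 and 2, at 73.2, 73.5 and 64 with Ube2m, Ube2f and control shRNA against 53.3 to 58.5, and control replicate 1 had a 3' to 5' beta-actin ratio of 1.82 against 1.24 to 1.35 elsewhere. The signal of the hybridization control spikes also differed. It was 1980 and 1893 on control replicates 1 and 2, against 2663 to 3234 on the Ube2m and Ube2f shRNA arrays of those replicates. In replicate 3 it was 2772 with control, 1775 with Ube2m and 1932 with Ube2f shRNA. The part of these differences in the results was not tested beyond leaving out each array, setting replicate 3 apart and using the actin ratio as a covariate. In bulk RNA a smaller share of cells expressing a gene cannot be told apart from less RNA per cell.

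With Ube2m shRNA compared with control shRNA, 4 of the 41 genes passed the threshold (adjusted p under 0.05), and all 4 were lower: Btrc, Fbxw4, Fbxl14 and Fbxo7. That is 9.76% of the list, where 9.71% of all genes tested passed (3.59% higher and 6.12% lower), so the share was close to the background. With Ube2f shRNA compared with control shRNA only Skp2 passed, and it was higher; 2.44% of the list stands against 5.19% of all genes (2.23% higher and 2.96% lower). The direct comparison of Ube2m shRNA with Ube2f shRNA called 6 genes, 14.6% of the list against 15.8% of all genes (6.37% higher and 9.38% lower). Of these, Skp2, Btrc, Fbxw4, Fbxo11 and Fbxo18 were lower with Ube2m shRNA and Fbxl19 was higher.

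Most differences in the list were small. The log2 fold changes ran from -0.77 to 0.54 for Ube2m shRNA over control, from -0.66 to 0.40 for Ube2f shRNA over control and from -0.76 to 0.78 for Ube2m over Ube2f shRNA. In the same order 1, 2 and 4 of the 41 genes differed by more than 1.5-fold, against 8.94%, 6.66% and 12.7% of all genes tested. The list's median was -0.12, 0.066 and -0.13, beside -0.038, 0.011 and -0.044 over all genes tested. Values above 0 were found for 16, 25 and 12 of the 41 genes, where 44.4%, 51.8% and 44% of all genes tested were above 0. When each array was centred on the median of the genes tested, an alternative chosen after seeing the data, the list's medians were -0.043, 0.079 and -0.061, and the 4 calls of Ube2m shRNA over control became 2 higher (Skp1a and Fbxo5) and 2 lower (Fbxw4 and Fbxo7). The comparisons of each hairpin with control share the control arrays.

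The replicate 3 arrays deviated together from their group means, with correlations of 0.32 to 0.56 between groups, and against replicates 1 and 2 of other groups all 12 correlations were below 0 (-0.39 to -0.063). With replicate 3 as a batch term more genes passed, 10, 4 and 14 of the 41 in the 3 comparisons (24.4%, 9.76% and 34.1%), where 20%, 13.8% and 25.6% of all genes tested passed with that term. The log2 fold changes are the same with it, and for genes called with this term but not without it both adjusted p are given below.

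**Figure D1:**
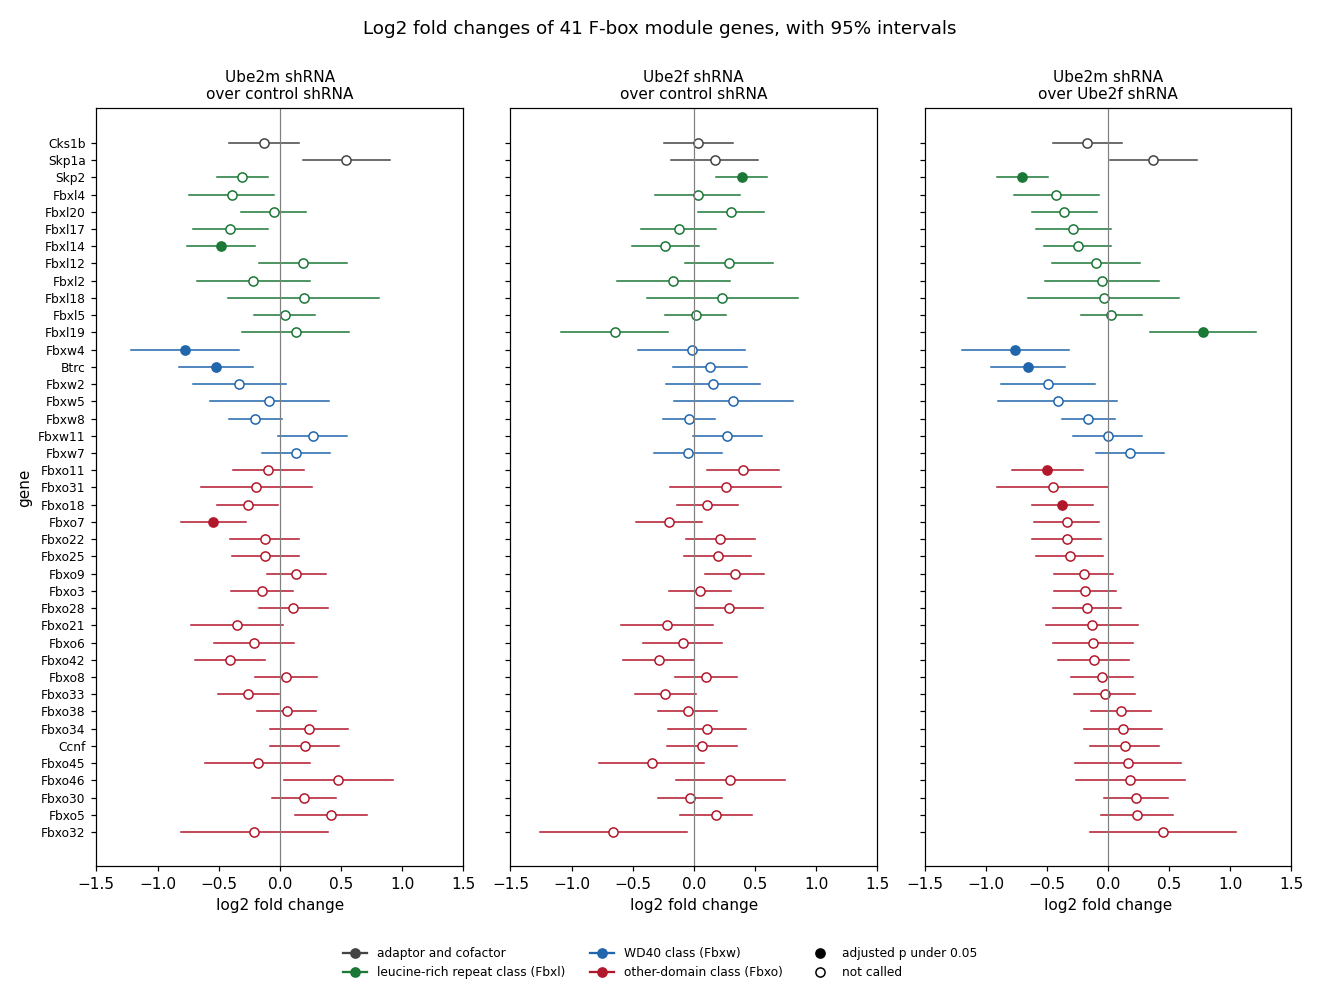
Log2 fold change (x axis) of each of the 41 genes (rows, coloured by class) in the 3 comparisons (panels), with 95% intervals from the limma fit and filled points for adjusted p under 0.05. Skp2 lies on opposite sides of 0 in the comparisons with control, and filled points number 4, 1 and 6.

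Separation of the arrays was more frequent than the calls. The 3 Ube2m shRNA arrays all lay beyond the 3 control arrays for 18 genes (43.9%), 6 higher and 12 lower. Of all genes tested 29.7% separated in this way, 11.6% higher and 18% lower. The 6 higher genes were Skp1a, Fbxw11, Fbxo5, Fbxo30, Fbxo46 and Ccnf. The 12 lower ones were Skp2, Btrc, Fbxw4, Fbxw8, Fbxl4, Fbxl14, Fbxl17, Fbxo3, Fbxo7, Fbxo18, Fbxo33 and Fbxo42. With Ube2f shRNA against control 9 genes separated (22% against 23.2% of all genes), with Skp2, Fbxl20, Fbxo9, Fbxo11 and Fbxo28 higher and Fbxl19, Fbxo32, Fbxo33 and Fbxo42 lower. Between Ube2m and Ube2f shRNA 15 genes separated (36.6% against 34.4%), 1 higher (Fbxl19) and 14 lower with Ube2m shRNA. Of all genes tested 13.7% separated higher and 20.6% lower there.

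Skp2 encodes the leucine-rich repeat receptor for the cell cycle inhibitor p27, and it was the gene of the list with the most stable difference. Its signal was 1713.0, 1631.5 and 1555.2 on the Ube2m shRNA arrays, 2691.1, 2540.7 and 2748.8 on the Ube2f shRNA arrays, and 1917.0, 2085.4 and 2071.3 on the control arrays. The 3 groups did not overlap: Ube2m shRNA was lowest (mean 1633 ± 78.9), Ube2f shRNA highest (2660.2 ± 107) and control between them (2025 ± 93.4; SD, n = 3 each). Between Ube2m and Ube2f shRNA the log2 fold change was -0.70 (SE 0.096, 95% interval -0.91 to -0.49, limma adjusted p = 0.000448), with -0.64 in replicates 1 and 2 and -0.82 in replicate 3. This call passed under all 24 alternatives tried, with log2 fold changes from -0.73 to -0.53 and adjusted p up to 0.0335.

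Against control the Skp2 differences were smaller. For Ube2f shRNA the log2 fold change was 0.39 (SE 0.096, limma adjusted p = 0.0352), with 0.38 in replicates 1 and 2 and 0.41 in replicate 3. For Ube2m shRNA it was -0.31 (SE 0.096, limma adjusted p = 0.0648), which did not pass (0.0169 with the batch term). The Ube2f call lay near the threshold and passed in 11 of 24 alternatives, over which the adjusted p ran from 0.00663 to 0.409 at log2 fold changes of 0.33 to 0.42. The limma adjusted p was 0.149, 0.0629 and 0.0726 without Ube2f replicate 1, 2 or 3. It was 0.102, 0.0631 and 0.0558 without control replicate 1, 2 or 3, and 0.063 and 0.0694 without Ube2m replicate 1 or 2, so it held only without Ube2m replicate 3. It was also lost with arrays centred on their median (0.409), with all probe sets averaged (0.197), with no intensity trend (0.0659), without the Ube2m shRNA arrays (0.092) and with the actin ratio as a covariate (0.13).

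The array carries 6 probe sets for Skp2. In a fit over all probe sets with 1 gene, all 6 had positive values for Ube2f shRNA over control, from 0.31 to 0.43 on the log2 scale. All 6 were negative for Ube2m over Ube2f shRNA, from -0.70 to -0.28, and 4 of them passed, with limma adjusted p of 0.00115, 0.00895, 0.0226 and 0.0493. For Ube2m shRNA over control 4 were negative and 2 were slightly positive (0.027 and 0.038), and 0 passed.

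The promoter of Skp2 is shown because this gene had the most stable difference, and those of Fbxl14 and Fbxo7 because they were lower than control with Ube2m shRNA. Windows of 250 bases upstream of the annotated start were taken from RefSeq on GRCm38.p6, written 5' to 3' on the strand of the gene, at chr15:9140455-9140704 (minus) for Skp2, chr6:119479418-119479667 (plus) for Fbxl14 and chr10:86021679-86021928 (plus) for Fbxo7. Skp2 and Fbxo7 have further windows in the table; for Skp2 the one with more CpG is shown and for Fbxo7 the more upstream one. Capitals mark matches to an ETS word (CGGAAGT), the CHR word of cell cycle promoters (TTTGAA) or a GC box (GGGCGG), read on both strands.
Skp2: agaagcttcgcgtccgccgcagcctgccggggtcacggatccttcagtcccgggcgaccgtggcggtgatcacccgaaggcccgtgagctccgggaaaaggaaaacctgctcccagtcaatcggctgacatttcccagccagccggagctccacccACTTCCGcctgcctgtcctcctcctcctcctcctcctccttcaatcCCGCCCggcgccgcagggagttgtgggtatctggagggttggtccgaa
Fbxl14: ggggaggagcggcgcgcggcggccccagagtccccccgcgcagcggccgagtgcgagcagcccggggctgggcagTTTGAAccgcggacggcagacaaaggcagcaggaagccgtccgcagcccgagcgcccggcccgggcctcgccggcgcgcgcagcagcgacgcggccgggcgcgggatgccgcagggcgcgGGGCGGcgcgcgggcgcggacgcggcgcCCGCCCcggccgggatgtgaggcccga
Fbxo7: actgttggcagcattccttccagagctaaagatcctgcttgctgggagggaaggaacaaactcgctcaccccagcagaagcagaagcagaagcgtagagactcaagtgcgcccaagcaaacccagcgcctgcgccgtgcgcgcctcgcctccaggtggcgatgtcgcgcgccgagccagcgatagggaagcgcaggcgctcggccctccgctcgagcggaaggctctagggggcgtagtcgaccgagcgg

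The Skp2 window holds 1 ETS word and 1 GC box, has 65.6% GC and 21 CpG. Over all its windows Skp2 also had a CHR word and a CCAAT match, which the window shown does not hold. The Fbxl14 window holds 1 CHR word and 2 GC boxes with 82.8% GC and 47 CpG, and the Fbxo7 window has no match with 64.8% GC and 25 CpG. Windows were matched for 32 of the 41 genes, giving 43 windows, and those of Btrc, Fbxw4, Fbxw8, Fbxl5, Fbxo3, Fbxo25, Fbxo32, Fbxo38 and Fbxo45 were not analysed here. GC boxes were in 60.5% of the list's windows and in 32.7% of all 32851 windows, beside a median GC of 62.4% against 52.4% and a median of 16 CpG against 6. The ETS word was in 14.0% against 4.9%, the CHR word in 20.9% against 16%, CCAAT in 32.6% against 33.8%, and the antioxidant response element TGACNNNGC in 11.6% against 10.2%. An E2F word (TTTCCCGC, TTTCGCGC, TTTGCCGC or TTTGGCGC) was in 0 of 43 windows and in 1.9% of all. These shares describe letters in the windows and were set against no measurement.

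Among the receptors with WD40 repeats, 2 of 7 were lower than control with Ube2m shRNA, 0 of 7 passed by limma with Ube2f shRNA, also at an unadjusted p under 0.05, and 2 of 7 were lower with Ube2m than with Ube2f shRNA. In both comparisons these were Btrc and Fbxw4. The median of these 7 log2 fold changes was -0.20, 0.13 and -0.41 in the 3 comparisons, beside -0.038, 0.011 and -0.044 over all genes tested. The calls are 28.6%, 0% and 28.6% of only 7 genes, where 9.71%, 5.19% and 15.8% of all genes tested passed.

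Btrc encodes beta-TrCP, the receptor for phosphorylated beta-catenin and IkappaB. Its signal was 314.2, 332.4 and 324.6 on the Ube2m shRNA arrays, 441.5, 534.9 and 592.1 on the Ube2f shRNA arrays and 509.9, 472.7 and 435.5 on the control arrays. All Ube2m shRNA arrays (mean 324 ± 9.13) lay below all others, while Ube2f shRNA (523 ± 76) and control (473 ± 37.2; SD, n = 3 each) overlapped. The log2 fold change was -0.52 for Ube2m shRNA over control (SE 0.14, limma adjusted p = 0.0343) and -0.66 for Ube2m over Ube2f shRNA (SE 0.14, limma adjusted p = 0.00716). For Ube2f shRNA over control it was 0.13 (95% interval -0.17 to 0.44, limma adjusted p = 0.648).

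Within replicates 1 and 2 and within replicate 3, Btrc gave -0.57 and -0.84 between the hairpins, and -0.58 and -0.41 for Ube2m shRNA over control. The difference between the hairpins passed in 22 of 23 alternatives, including all 9 with 1 array left out. It was lost with all probe sets averaged (-0.47, limma adjusted p = 0.173, where the range over alternatives was 0.00299 to 0.173). The 2 other Btrc probe sets above the low-signal level had -0.24 and -0.28 and did not pass. Against control the Ube2m call was less stable, with adjusted p from 0.0156 to 0.268 over alternatives and log2 fold changes from -0.61 to -0.42. The limma adjusted p was 0.119, 0.0973 and 0.0676 without Ube2m replicate 1, 2 or 3, and 0.112 and 0.0775 without control replicate 1 or 2. It was 0.0661 with no filter on low signals, 0.0556 with arrays centred on their median, 0.0546 with centring on tested genes, 0.268 with probe sets averaged and 0.105 with the actin covariate.

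Fbxw4 encodes dactylin, named for the mouse dactylaplasia locus. Its signal was 118.1, 183.3 and 171.5 with Ube2m shRNA, 226.4, 289.2 and 310.4 with Ube2f shRNA and 289.2, 318.9 and 229.5 with control shRNA. Ube2m shRNA (158 ± 34.7) was below both other groups on every array, and Ube2f shRNA (275 ± 43.7) and control (279 ± 45.5; SD, n = 3 each) overlapped. On the log2 scale the difference was -0.77 against control (SE 0.20, limma adjusted p = 0.0318) and -0.76 against Ube2f shRNA (SE 0.20, limma adjusted p = 0.0238). Ube2f shRNA over control gave -0.018, with a 95% interval from -0.46 to 0.42.

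Leaving out Ube2m replicate 1, the lowest array for Fbxw4, gave -0.60 against control (limma adjusted p = 0.132) and -0.58 against Ube2f shRNA (0.103). The call against control was also lost without Ube2m replicate 2 (0.0554), control replicate 1 (0.105) or control replicate 2 (0.101), with no filter on low signals (0.0727) and with the actin covariate (0.0937). Its adjusted p ran from 0.0141 to 0.132 over alternatives. Within replicates 1 and 2 the difference from control was -0.97 and within replicate 3 it was -0.39, and the difference from Ube2f shRNA was -0.73 and -0.80. The call against Ube2f shRNA was lost without Ube2f replicate 2 (0.0776) or 3 (0.07) and with no filter (0.0571), over a range of adjusted p from 0.0112 to 0.103. Fbxw4 has 1 probe set.

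Fbxw11, the paralog of Btrc that encodes the other beta-TrCP protein, had 9813.9, 9414.9 and 7562.7 with Ube2m shRNA, 9364.4, 10068.7 and 7454.7 with Ube2f shRNA and 7460.5, 7148.6 and 7462.2 with control shRNA. Its log2 fold change was 0.27 in both comparisons with control (limma adjusted p = 0.222 and 0.263) and -0.0028 between the hairpins, with a 95% interval from -0.28 to 0.28. In replicates 1 and 2 alone Fbxw11 passed against control with both hairpins (0.40 and 0.41, limma adjusted p = 0.00797 and 0.0102). In replicate 3 the differences were 0.019 and -0.0014. The probe set used may match several transcripts. The 5 Fbxw11 probe sets above the low-signal level ran from -0.043 to 0.65 with Ube2m shRNA over control. With Ube2f shRNA over control they ran from -0.051 to 0.51, and 0 passed in the fit over all probe sets. Fbxw7, the receptor for cyclin E, Myc and Jun, had 701 ± 60.4 with Ube2m shRNA, 618 ± 78 with Ube2f shRNA and 636 ± 29.9 with control shRNA. Its values of 0.13, -0.048 and 0.18 did not pass. Fbxw2 gave -0.49 between the hairpins (limma adjusted p = 0.084, and 0.0379 with the batch term), but its probe sets disagreed in sign. Fbxw8, which works with Cul7 in place of Cul1, gave -0.20, -0.040 and -0.16 and did not pass, and neither did Fbxw5.

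**Figure D2:**
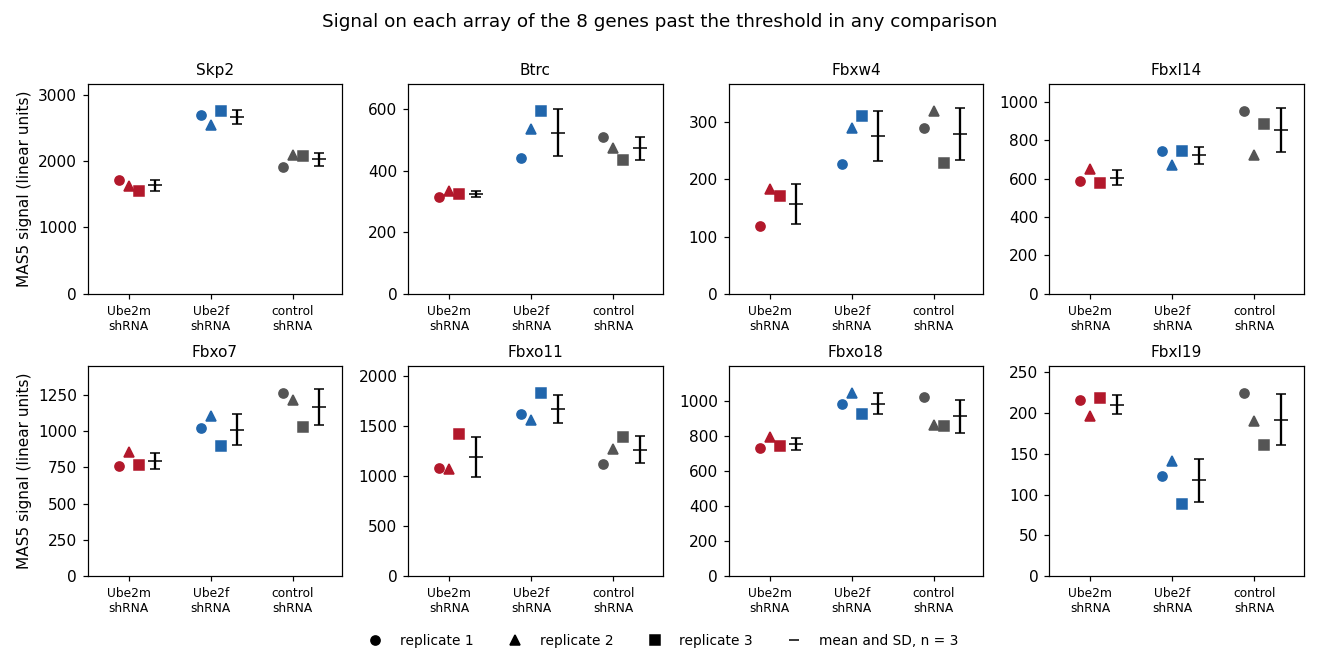
MAS5 signal (y axis, linear) on each array for the 8 genes that passed in at least 1 comparison, with a symbol per replicate and the mean and SD per group. Ube2m shRNA stands left, Ube2f shRNA in the middle and control right; Btrc and Fbxw4 are low on all 3 Ube2m shRNA arrays and Fbxl19 on all 3 Ube2f shRNA arrays.

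Of the 10 receptors with leucine-rich repeats, 1, 1 and 2 passed in the 3 comparisons: Fbxl14 for Ube2m shRNA over control, Skp2 for Ube2f shRNA over control, and Skp2 and Fbxl19 between the hairpins. Their median log2 fold change was -0.13, 0.022 and -0.17, beside -0.038, 0.011 and -0.044 over all genes tested. The calls are 10%, 10% and 20% of the 10, where 9.71%, 5.19% and 15.8% of all genes tested passed.

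Fbxl14, known as a receptor for the transcription factor Snail, had 589.9, 648.2 and 575.2 with Ube2m shRNA, 746.0, 671.1 and 744.9 with Ube2f shRNA and 950.2, 725.5 and 886.1 with control shRNA. The Ube2m shRNA arrays (604 ± 38.6) were below all others, and Ube2f shRNA (721 ± 42.9) overlapped with control (854 ± 116; SD, n = 3 each). For Fbxl14 limma gave a log2 fold change of -0.48 for Ube2m shRNA over control (SE 0.13, limma adjusted p = 0.0335). It was -0.23 for Ube2f shRNA over control (limma adjusted p = 0.34) and -0.25 between the hairpins (0.227), so neither of these passed.

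The Fbxl14 difference was -0.42 in replicates 1 and 2 and -0.61 in replicate 3. The call passed in 12 of 24 alternatives, with log2 fold changes from -0.59 to -0.40 and adjusted p from 0.0127 to 0.124. The limma adjusted p was 0.119, 0.075 and 0.0843 without Ube2m replicate 1, 2 or 3, 0.118 and 0.0721 without control replicate 1 or 3, and 0.0537 without Ube2f replicate 1. It was 0.0518 with no filter, 0.0711 and 0.0603 with the centrings on all probe sets and on tested genes, 0.0552 with only the groups compared, 0.0803 in replicates 1 and 2 and 0.124 with the actin covariate.

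Fbxl19, whose protein carries a zinc finger that binds CpG islands, was the single gene of the list called higher with Ube2m than with Ube2f shRNA. Its signal was 215.4, 196.4 and 217.9 with Ube2m shRNA, 122.6, 140.9 and 88.9 with Ube2f shRNA and 223.9, 190.3 and 161.3 with control shRNA. The Ube2f shRNA arrays (117 ± 26.4) lay below all others, and Ube2m shRNA (209.9 ± 11.8) overlapped with control (192 ± 31.3; SD, n = 3 each). Between the hairpins the log2 fold change was 0.78 for Ube2m over Ube2f shRNA (SE 0.20, 95% interval 0.34 to 1.21, limma adjusted p = 0.0202). Against control it was -0.65 for Ube2f shRNA (limma adjusted p = 0.0878) and 0.13 for Ube2m shRNA (0.757), which did not pass, although the first did with the batch term (0.0354).

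The difference of Fbxl19 was 0.59 in replicates 1 and 2 and 1.16 in replicate 3, and it passed in 15 of 23 alternatives. The limma adjusted p was 0.0681, 0.0517 and 0.0552 without Ube2m replicate 1, 2 or 3, and 0.0501 and 0.0632 without Ube2f replicate 1 or 3. It was 0.0578 with no filter, 0.0934 with arrays centred on their median and 0.0796 in replicates 1 and 2 alone, over a range from 0.0077 to 0.0934.

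The other Fbxl genes did not pass in the fit without a batch term. Fbxl5, the iron-sensing receptor for IRP2, had 850 ± 47.8 with Ube2m shRNA, 833 ± 17.4 with Ube2f shRNA and 828 ± 90.2 with control shRNA, and its log2 fold changes were 0.041, 0.013 and 0.027, with 95% intervals within -0.24 to 0.29. Fbxl17, which removes mispaired BTB proteins, gave -0.41 for Ube2m shRNA over control (limma adjusted p = 0.0923, and 0.0389 with the batch term). The mitochondrial F-box gene Fbxl4 gave -0.39 in that comparison (0.151, and 0.0461 with the batch term) and -0.42 between the hairpins (0.0989, and 0.0266). Fbxl20 gave 0.30 for Ube2f shRNA over control (0.184) and -0.36 between the hairpins (0.0709, and 0.0323 with the batch term). Fbxl2, Fbxl12 and Fbxl18 had unadjusted and adjusted p above the threshold in all comparisons.

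Of the 22 receptors with other domains, 1 passed for Ube2m shRNA over control (Fbxo7), 0 for Ube2f shRNA over control and 2 between the hairpins (Fbxo11 and Fbxo18). By limma at an unadjusted p under 0.05 the counts were 6 (2 higher and 4 lower), 5 (3 and 2) and 5 (0 and 5). Over all 41 genes they were 13 (3 higher and 10 lower), 8 (5 and 3) and 13 (2 and 11), where 24.8%, 20.2% and 28.7% of all genes tested had an unadjusted p under 0.05. The median log2 fold change of the 22 was -0.12, 0.084 and -0.12, beside -0.038, 0.011 and -0.044 over all genes tested. The calls are 4.55%, 0% and 9.09% of the 22, where 9.71%, 5.19% and 15.8% of all genes tested passed.

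Fbxo7, a gene of inherited parkinsonism in humans whose protein binds the proteasome regulator PI31, had 758.3, 859.0 and 768.6 with Ube2m shRNA, 1026.2, 1108.2 and 900.9 with Ube2f shRNA and 1261.2, 1216.0 and 1029.5 with control shRNA. Ube2m shRNA (795 ± 55.4) was below both other groups on every array, and Ube2f shRNA (1012 ± 104) overlapped with control (1169 ± 123; SD, n = 3 each). The log2 fold change was -0.54 for Ube2m shRNA over control (SE 0.12, 95% interval -0.81 to -0.27, limma adjusted p = 0.0176). It was -0.34 between the hairpins (0.0868, and 0.0183 with the batch term) and -0.20 for Ube2f shRNA over control (0.387). The difference from control was -0.61 in replicates 1 and 2 and -0.41 in replicate 3, and the call passed in 19 of 24 alternatives. It was lost without Ube2m replicate 1 (0.0786), control replicate 1 (0.0681) or control replicate 2 (0.0548), with arrays centred on their median (0.0886) and with the actin covariate (0.0713), over a range from 0.00175 to 0.0886.

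Fbxo11, which encodes a receptor for the repressor BCL6, had 1076.0, 1064.3 and 1414.2 with Ube2m shRNA, 1615.9, 1558.2 and 1822.3 with Ube2f shRNA and 1119.4, 1272.2 and 1387.2 with control shRNA. Ube2f shRNA (1665 ± 139) was above both other groups on every array, and Ube2m shRNA (1185 ± 199) overlapped with control (1259.6 ± 134; SD, n = 3 each). The log2 fold change was -0.49 for Ube2m over Ube2f shRNA (SE 0.14, limma adjusted p = 0.0256), 0.40 for Ube2f shRNA over control (0.111, and 0.00965 with the batch term) and -0.094 for Ube2m shRNA over control (0.735). Between the hairpins it was -0.56 in replicates 1 and 2 and -0.36 in replicate 3. That call was lost without Ube2m replicate 1 (0.108) or 2 (0.115) or Ube2f replicate 1 (0.0668) or 3 (0.072), and with centring on tested genes (0.0514), over a range from 0.00117 to 0.115. The Bcl6 transcript was 498 ± 38.7 with Ube2m shRNA, 251 ± 58.6 with Ube2f shRNA and 441 ± 34.4 with control shRNA. It was lower than control with Ube2f shRNA (-0.80, limma adjusted p = 0.0177). Bcl6 belongs to the 37 substrate transcripts described below, whose calls went in both directions. A link between the Fbxo11 and Bcl6 transcripts was not tested.

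Fbxo18, listed in the probe table as Fbh1, encodes an F-box DNA helicase. It had 731.3, 796.3 and 741.6 with Ube2m shRNA, 983.9, 1042.8 and 925.0 with Ube2f shRNA and 1022.2, 860.7 and 858.1 with control shRNA. Ube2m shRNA (756 ± 34.9) was below both other groups on every array, and Ube2f shRNA (984 ± 58.9) overlapped with control (914 ± 94; SD, n = 3 each). Limma gave a log2 fold change of -0.37 between the hairpins (SE 0.11, limma adjusted p = 0.0445), -0.26 for Ube2m shRNA over control (0.176) and 0.11 for Ube2f shRNA over control (0.655). Between the hairpins it was -0.40 in replicates 1 and 2 and -0.31 in replicate 3. This call was the closest to the threshold and passed in 12 of 24 alternatives. It was lost without Ube2m replicate 1 (0.147), 2 (0.0876) or 3 (0.104), Ube2f replicate 1 (0.122) or 2 (0.135), or control replicate 2 (0.0553). It was also lost with no filter (0.0631), 3 other scalings (0.229, 0.0909 and 0.0894), probe sets averaged (0.051) and no intensity trend (0.0547), over a range from 0.0138 to 0.229.

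Among the remaining 19 genes of this class the values stayed short of the threshold in the fit without a batch term. Fbxo5, which encodes the inhibitor Emi1 of the anaphase-promoting complex, had 1968 ± 319 with Ube2m shRNA, 1661 ± 160 with Ube2f shRNA and 1466 ± 171 with control shRNA, and its log2 fold change of 0.42 for Ube2m shRNA over control did not pass (limma adjusted p = 0.0742, and 0.00447 with the batch term). Fbxo42 gave -0.41 in the same comparison (0.0742, and 0.02 with the batch term), and Fbxo46 gave 0.48 (0.171). Cyclin F (Ccnf), a receptor for CP110 and RRM2, had 1678.5 ± 106 with Ube2m shRNA, 1538 ± 261 with Ube2f shRNA and 1455 ± 100 with control shRNA, or 0.20, 0.066 and 0.14. Fbxo9 gave 0.33 for Ube2f shRNA over control (0.105, and 0.0201 with the batch term), and Fbxo22, Fbxo25 and Fbxo31 gave -0.34, -0.31 and -0.45 between the hairpins (0.105, 0.121 and 0.176, and 0.00952, 0.0274 and 0.0279 with the batch term).

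Fbxo32, the muscle atrophy receptor atrogin-1, lay near the low-signal level, with 63.1, 71.9 and 86.4 for Ube2m shRNA, 57.6, 31.2 and 64.6 for Ube2f shRNA and 99.3, 88.5 and 75.2 for control shRNA. Its log2 fold change of -0.66 for Ube2f shRNA over control did not pass (limma adjusted p = 0.202), and its other probe sets had the opposite sign. Fbxo8 and Fbxo38 stayed within -0.052 to 0.11 in all comparisons, with 95% intervals within -0.30 to 0.36. Fbxo3, Fbxo6, Fbxo21, Fbxo28, Fbxo30, Fbxo33, Fbxo34 and Fbxo45 did not pass in any comparison, with log2 fold changes between -0.35 and 0.29.

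The adaptor gene Skp1a, listed as Skp1 in the probe table, had 9682.4, 9486.5 and 6977.3 with Ube2m shRNA, 8209.2, 6451.7 and 5587.3 with Ube2f shRNA and 5717.7, 6896.4 and 5248.9 with control shRNA. Every Ube2m shRNA array was above every control array, while Ube2f shRNA overlapped with both. The log2 fold change for Ube2m shRNA over control was 0.54 (SE 0.16, 95% interval 0.19 to 0.90), just short of the threshold (limma adjusted p = 0.0579, and 0.00281 with the batch term). Between the hairpins it was 0.37 (0.158, and 0.0169 with the batch term). Its second probe set gave 0.85 and passed in the fit over all probe sets (limma adjusted p = 0.0362), where the one used did not (0.144). With both averaged the value was 0.70 (0.0305), and it was 0.51 after quantile normalization (0.0311), 0.69 without Ube2m replicate 3 (0.0217) and 0.62 with centring on tested genes (0.047). Cks1b, whose product helps Skp2 bind p27, had 13028 ± 1682 with Ube2m shRNA, 14678 ± 2359 with Ube2f shRNA and 14185 ± 593 with control shRNA (SD, n = 3 each). Its values of -0.13, 0.038 and -0.17 did not pass, with 95% intervals within -0.45 to 0.32.

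**Figure D3:**
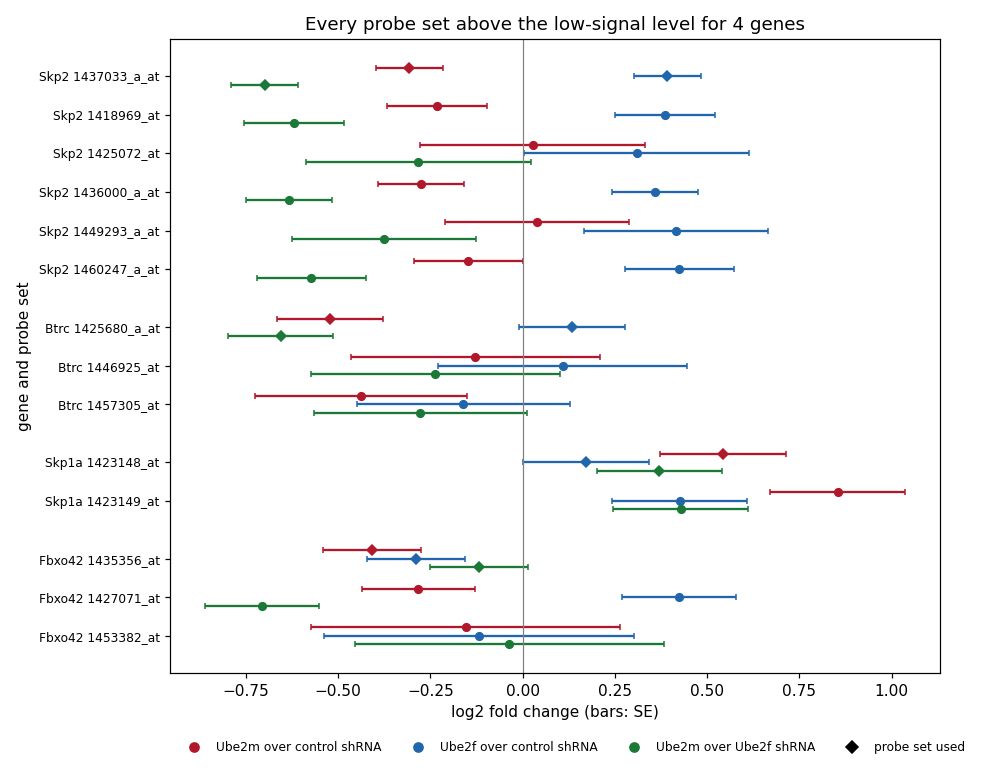
Log2 fold change with SE for every probe set above the low-signal level of Skp2, Btrc, Skp1a and Fbxo42 in each comparison, from a fit over all probe sets with 1 gene; diamonds mark the probe set used. All 6 Skp2 probe sets are below 0 for Ube2m over Ube2f shRNA, and those of Fbxo42 differ from each other.

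The list has 91 probe sets, and 23 of its genes have more than 1. In Fbxo42 the probe set used gave -0.12 between the hairpins, whereas another gave -0.71 and passed in the fit over all probe sets (limma adjusted p = 0.022). The values of genes with several probe sets therefore hold for the probe set used.

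**Figure D4:**
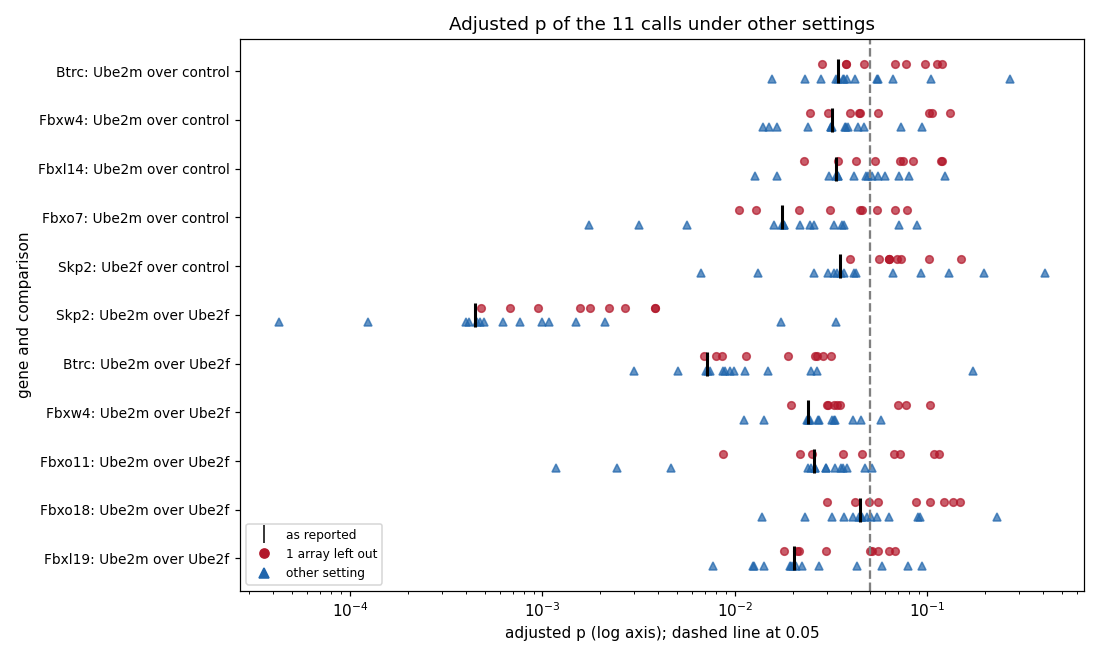
Adjusted p (log axis) of the 11 calls, as reported (black bar), with 1 array left out (red circles) and under other settings (blue triangles), with the threshold of 0.05 dashed. All points of Skp2 for Ube2m over Ube2f shRNA lie below the threshold, and those of every other call cross it.

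The genes around the receptors were described from lists chosen with earlier results of these data known, by their counts and medians, and single arrays were not left out for them. Cul1, the scaffold, had 2419 ± 226 with Ube2m shRNA, 2933 ± 140 with Ube2f shRNA and 3022 ± 382 with control shRNA, and its log2 fold changes of -0.32, -0.036 and -0.28 did not pass (limma adjusted p = 0.108, 0.902 and 0.128). Nedd8 gave -0.032, -0.0086 and -0.023, and the Rbx1 probe set was under the low-signal level. Of 23 tested genes for the scaffold, the NEDD8 cascade, the COP9 signalosome and CAND exchange, 0 were higher and 2 lower with Ube2m shRNA than with control (0 and 3 by limma at an unadjusted p under 0.05). With Ube2f shRNA 2 were lower, Ube2f itself and Cops7a, and Ube2f was the 1 gene called between the hairpins. The calls are 8.7%, 8.7% and 4.35% of the 23, where 9.71%, 5.19% and 15.8% of all genes tested passed. The shares in the 2 comparisons with Ube2f shRNA count Ube2f, the target of that hairpin, whose call was set by the design. Cops7a, a subunit gene of the COP9 signalosome that removes NEDD8 from cullins, was lower than control with both hairpins. Its signal was 1730.1, 1672.6 and 1811.8 with Ube2m shRNA, 1574.5, 1831.5 and 1724 with Ube2f shRNA and 2772.4, 2592.2 and 2904.4 with control shRNA, or -0.66 and -0.68 (limma adjusted p = 0.00188 and 0.00218). Dcun1d2, a cofactor gene of neddylation, was lower with Ube2m shRNA (-0.45, limma adjusted p = 0.0192).

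Among 11 ubiquitin-transfer partners, Ube2g1, an E2 gene, was higher with Ube2m shRNA than with control (0.36, limma adjusted p = 0.0285) and than with Ube2f shRNA (0.39, 0.0137). Cul7, the scaffold that pairs with Fbxw8, was lower with Ube2f shRNA than with control (-0.55, limma adjusted p = 0.0223). The other 9 did not pass in any comparison. The calls are 9.09% of the 11 in each comparison, where 9.71%, 5.19% and 15.8% of all genes tested passed.

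F-box genes outside the list of 41 were also measured. Of 33 listed, 26 had a probe set and 15 were tested. With Ube2m shRNA against control 1 was higher (Lmo7, 0.71, limma adjusted p = 0.022) and 2 were lower, Fbxo4 (-0.66, 0.0116) and Fbxl7 (-0.75, 0.0161). With Ube2f shRNA Tbl1x was lower (-0.41, 0.044). These calls are 20% and 6.67% of the 15, where 9.71% and 5.19% of all genes tested passed. Fbxo4 had 559, 509.3 and 485.5 with Ube2m shRNA, 1179.3, 1214.5 and 916.9 with Ube2f shRNA and 883.6, 889.5 and 722.1 with control shRNA. Those 3 groups did not overlap, and its log2 fold change between the hairpins was -1.06 (SE 0.14, limma adjusted p = 0.000324). Like Skp2 it was lowest with Ube2m shRNA and highest with Ube2f shRNA. Between the hairpins 4 of the 15 were lower with Ube2m shRNA and 1 higher, 33.3% where 15.8% of all genes tested passed. Besides Fbxo4 the lower ones were Fbxl7 (-0.77, 0.0078), Fbxo17 (-0.60, 0.026) and Fbxl15 (-0.68, 0.0402), and Tbl1x was higher (0.34, 0.0448), named here although it was the fifth by adjusted p.

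Transcripts of known substrates of these ligases showed calls in both directions. Of 37 tested, 1 was higher and 2 lower with Ube2m shRNA than with control, 1 and 1 with Ube2f shRNA, and 4 and 4 between the hairpins (21.6%, beside 15.8% of all genes tested), with medians of -0.0089, -0.070 and -0.057. Against control the calls are 8.11% and 5.41% of the 37, beside 9.71% and 5.19% of all genes tested. Ccnd1, the cyclin D1 gene, was lower with Ube2m shRNA (-0.58, limma adjusted p = 0.0156), as was the CDK inhibitor gene Cdkn1a (-0.39, 0.0349). Pdcd4, which encodes a beta-TrCP substrate, was higher than control with Ube2m shRNA (0.55, 0.0325) and with Ube2f shRNA (0.93, 0.00303). Between the hairpins Jun (-0.66, limma adjusted p = 0.00593) and Ccnd1 (-0.61, 0.00719) were lower with Ube2m shRNA. Bcl6 (0.97, 0.00228) and Ccne1, the cyclin E1 gene (0.65, 0.0139), were higher.

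Skp2, Cks1b, Fbxo5 and Ccnf vary with the cell cycle, so 38 other cell cycle genes were set beside them. With Ube2m shRNA against control 2 were higher (E2f2, 0.87, limma adjusted p = 0.0378, and Kif20a, 0.53, 0.0378) and 1 lower (Mcm2, -0.40, 0.0267), with a median of 0.16. These are 7.89% of the 38, where 9.71% of all genes tested passed. By limma at an unadjusted p under 0.05, 12 were higher and 2 lower, where 24.8% of all genes tested had such a p. All Ube2m shRNA arrays lay above all control arrays for 16 genes and below them for 2, against 11.6% and 18% of all genes tested. With Ube2f shRNA against control 0 passed, beside 0 higher and 3 lower by limma at an unadjusted p under 0.05, and the median was 0.0025. Of all genes tested 5.19% passed there and 20.2% had an unadjusted p under 0.05. In that comparison 1 gene separated higher and 4 lower, where 11.6% of all genes did so in each direction. Between the hairpins 9 were higher with Ube2m shRNA and 1 lower, with a median of 0.15. That is 26.3% of these genes, where 15.8% of all genes tested passed, 6.37% higher and 9.38% lower. The higher ones included the mitotic kinase gene Plk1 (0.48, 0.00893), the spindle motor gene Kif11 (0.46, 0.0169) and the checkpoint gene Bub1b (0.42, 0.0182). Between the hairpins Skp2 gave -0.70 and Cks1b -0.17, opposite in sign to the median of the 38. Fbxo5 gave 0.23 and Ccnf 0.14, with the same sign as that median. Of these only Skp2 passed, and whether its difference is tied to the cell cycle was not tested.

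Lists beside 3 single receptors gave the following. Of 9 Wnt beta-catenin targets, set beside Btrc, 1 was higher (Apcdd1) and 1 lower (Ccnd1) with Ube2m shRNA than with control, 0 and 1 with Ube2f shRNA, and 3 and 1 between the hairpins (44.4% of the 9). The shares against control were 22.2% and 11.1%. Of all genes tested 9.71%, 5.19% and 15.8% passed in the 3 comparisons. Of 20 FOXO and muscle wasting genes, set beside Fbxo32, 1 and 0 passed with Ube2m shRNA (Gabarapl1, 0.62, limma adjusted p = 0.0329), 1 and 0 with Ube2f shRNA (Bnip3, 0.85, 0.000943), and 6 and 2 between the hairpins (40% of the 20). The shares against control were 5% and 5%, where the same all-gene shares apply. The median was 0.29 for Ube2m shRNA over control, with 10 higher and 0 lower by limma at an unadjusted p under 0.05. For Ube2f shRNA over control it was 0.054, with 3 higher and 3 lower. Of all genes tested 24.8% and 20.2% had such a p. Of 11 iron and hypoxia genes, set beside Fbxl5, 3 were higher with Ube2m shRNA and 2 lower with Ube2f shRNA than with control, and 4 were higher and 1 lower between the hairpins (45.5% of the 11, where 15.8% of all genes tested passed). Against control these are 27.3% and 18.2% of the 11, where 9.71% and 5.19% of all genes tested passed. The list's medians were 0.29, 0.090 and -0.048 in the 3 comparisons, with 7, 7 and 5 of the 11 above 0. The iron exporter gene Slc40a1 had 654 ± 9.8 with Ube2m shRNA, 79.5 ± 20.3 with Ube2f shRNA and 179.5 ± 10.2 with control shRNA. Its log2 fold changes against control were 1.78 (limma adjusted p = 0.000118) and -1.06 (0.00556). Slc2a1 gave 1.25 (9.8e-05) and 0.40 (0.0891) against control, and Hmox1 gave 1.03 (0.00657) and -0.79 (0.034). Fbxl5 itself did not differ beyond its spread.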

How the data were processed

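The arrays of 9 NIH 3T3 samples were analysed from the deposited intensity of each probe set, a linear signal attributed to MAS5 per the submitters' processing notes, with no version or settings stated in the sources at hand. The mean signal without the outer 2% at each end was close to 500 on every array (499.8 before rounding), so 1 scaling factor per array had been applied. Groups and replicates came from the labels, which call the replicates biological. The number of arrays limits the precision, and no depth is counted.

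Signals were analysed as log2(signal + 16), which understates folds of low genes. Of 45101 probe sets, 64 controls, 932 with several genes and 9160 without a gene name were left out. Of the 34945 left, 34741 were found in the reference by gene ID. For each of 18193 genes the probe set with the highest mean was kept, and 10613 genes whose mean reached a low-signal level (6.12, or 53.8 as a signal), set at the median of the non-control probe sets, were tested. In R 4.3.3, limma 3.58.1 fitted a group-means model to the 9 arrays together, and eBayes moderated the variances with an intensity trend. Tests were two-sided, with Benjamini-Hochberg adjustment over all genes tested and a threshold of 0.05. Every adjusted p in the text is from limma. With 3 arrays a group, the smallest p an exact permutation test allows is 0.1, so none was used. The fit was tested on simulated data with independent noise on each array, so without the shared deviation of the replicate 3 arrays. That test does not show how the fit behaves with such a deviation.

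The 41 genes, the companion lists (cullin 1 and neddylation, ubiquitin transfer, other F-box genes, substrates, cell cycle, FOXO and muscle wasting, Wnt targets, iron and hypoxia) and the cell type markers were chosen with earlier results of these data known. Values on every array were given for each gene of the 41 past the threshold, and others by class with the largest changes as examples. Outside the 41, up to 4 called genes of each list were named per comparison, by smallest adjusted p. Skp1a, Fbxw11 and Fbxo32 were given array values after their results were seen. The alternatives were other constants (1 and 64), filters, scalings, probe set rules, spread and batch terms, and leaving out each array.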

Additional observations from a re-analysis of the deposited data

Results flagged for a closer look

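For 6 of the 41 genes the direct comparison of Ube2m with Ube2f shRNA passed the threshold, so the effects of the hairpins differed by a test of the difference itself. The log2 fold changes of Ube2m over Ube2f shRNA were -0.70 for Skp2 (limma adjusted p = 0.000448), -0.66 for Btrc (0.00716), -0.76 for Fbxw4 (0.0238), 0.78 for Fbxl19 (0.0202), -0.49 for Fbxo11 (0.0256) and -0.37 for Fbxo18 (0.0445). These 6 are 14.6% of the list, where 15.8% of all genes tested passed in the same comparison.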

How the results depend on the processing

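Across 15 other settings and 9 single arrays left out, Skp2 between the hairpins passed throughout, and the remaining 10 calls were each lost at least once with their direction kept; the values stand beside each gene above, and the cause was not tested. Against 4 calls for Ube2m shRNA over control, there was 1 with no low-signal filter, 2 with a stricter filter on signals, where 31 of the 41 genes were tested, 1 with arrays centred on their median, 8 with the replicate block, 10 with replicate 3 as a batch term, 7 in replicates 1 and 2 alone and 0 with the actin covariate. The range with 1 array left out was 0 to 5, with 0 without Ube2m replicate 1 or control replicate 1. Against 1 call for Ube2f shRNA over control, there were 0 with arrays centred, probe sets averaged, no intensity trend, the groups compared alone or the actin covariate, 3 with the replicate block and in replicates 1 and 2 alone, and 4 with the batch term, with a range of 0 to 1. Against 6 calls for Ube2m over Ube2f shRNA, there were 3 with no filter and with the stricter filter, 14 with the replicate block and with the batch term and 10 in replicates 1 and 2 alone, with a range of 2 to 7, the lowest without Ube2m replicate 1. The labels do not say that replicate numbers pair the samples, and 7 of 9 same-numbered pairs had a correlation over 0.1 (range -0.0046 to 0.56). The 3 pairs of replicate 3 had 0.32 to 0.56, and 4 of 9 arrays correlated best with their own number. The block added Skp1a, Skp2, Fbxo5 and Fbxo42 for Ube2m shRNA over control and Fbxo9 and Fbxo11 for Ube2f shRNA over control. Between the hairpins it added Skp1a, Fbxw2, Fbxl4, Fbxl20, Fbxo7, Fbxo22, Fbxo25 and Fbxo31. Among the 8 genes called in any comparison, the values that turned sign were Btrc (-0.014) for Ube2f shRNA over control and Fbxl19 (-0.0050) for Ube2m shRNA over control in replicates 1 and 2, and Fbxw4 for Ube2f shRNA over control, which ranged from -0.15 to 0.11 with 1 array left out and was above 0 without Ube2f replicate 1 (0.11), control replicate 1 (0.012) or control replicate 2 (0.079). For the other genes of the list 8 values turned sign in replicates 1 and 2, which makes 10 of 123 values, the largest of them 0.13 in size over all arrays. Under the other alternatives sign changes were counted for the 8 called genes alone.

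Over all genes tested the counts moved as well. For Ube2m shRNA over control 1031 became 388 to 1177 with single arrays left out and 448 to 2118 under other settings. For Ube2f shRNA over control 551 became 195 to 583 and 222 to 1461, and for Ube2m over Ube2f shRNA 1672 became 1017 to 1813 and 868 to 2714. The share of higher calls for Ube2m shRNA over control was 37% (381 higher, 650 lower), 23.6% with arrays centred on their median and 55.3% with centring on the genes tested. For Ube2f shRNA over control it was 43% and 22.5% with arrays centred, and for Ube2m over Ube2f shRNA 40.4% and 53.5% with centring on tested genes. Fbxo32 and Fbxl18 had the mean signals nearest the low-signal level.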

Other observations

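Btrc and Fbxw4, the 2 receptors with WD40 repeats called in both comparisons of Ube2m shRNA, lie near each other on chromosome 19, with 2 protein-coding genes listed between them. This was looked at after their values were seen. The genes between them, Poll and Dpcd, had log2 fold changes of -0.35 and 0.14 for Ube2m shRNA over control (limma adjusted p = 0.37 and 0.604) and did not pass. Kazald1, on the other side of Btrc, had 316.6 ± 58.3 with Ube2m shRNA, 530.3 ± 16.9 with Ube2f shRNA and 496 ± 55.5 with control shRNA (SD, n = 3 each). It was lower with Ube2m shRNA than with control (-0.63, limma adjusted p = 0.0208) and than with Ube2f shRNA (-0.73, 0.00572). Oga, beyond Fbxw4, gave 0.16 for Ube2m shRNA over control and did not pass (0.437), and Tlx1, Lbx1 and Fgf8 were under the low-signal level. Single arrays were not left out for these neighbours.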
